A study of Homo sapiens with 14 samples.

Results

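Unedited A375 cells, a human melanoma line, were sequenced both as bulk pools and as single-cell clones, and the comparison concerned these 5 of the 14 libraries in the series. The bulk control pools (n = 3) were A375 cells with wild-type ZC3H18 (Z18), transiently transfected with an empty vector and selected with antibiotic. Per the study's methods the vector expressed Cas9 without a guide RNA and the antibiotic was puromycin. The WT clones (n = 2) were A375 lines with wild-type Z18 that had gone through transfection and selection and then through limiting dilution, so each clone descends from a single cell and was sequenced as 1 library. The members were taken from the genotype labels. No editing guide was present in either group, so the groups differ in single-cell cloning and in whatever else separated the 2 experiments, and these cannot be told apart. The other 9 libraries were 3 bulk Z18 CRISPR pools, treated like the bulk controls but with a guide against Z18, 3 clones heterozygous for loss of Z18 (-/+) and 3 clones heterozygous for a truncated Z18 (trunc/+). They are given only side by side with the 5. Nothing in the labels ties a pool to a clone, and p-values measure the spread between these libraries, which may be technical in part.

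A bulk pool is a mixture of cells that may sit in different expression states, whereas a clone carries forward the state of its founder. Melanoma lines are known to hold such states, among them a melanocytic or neural crest state kept by SOX10 and its target ERBB3. Another is a dedifferentiated state in which SOX9 often replaces SOX10. Foreign DNA in the cytosol can be sensed and can induce interferons, which signal through JAK kinases and a complex of STAT factors with IRF9 to interferon-stimulated genes. That complex binds the interferon-stimulated response element (ISRE) of their promoters. In bulk RNA, a difference in the number of cells in a state cannot be told apart from a difference in RNA per cell.

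Promoter stretches with the letters of this element are shown for 7 of the 10 interferon-stimulated genes that rose, the list with the most genes that passed. The letters searched were GAAA, any 2 bases and GAAA, on both strands, in the 300 bases from 250 before to 50 after each RefSeq gene start (GRCh38.p14). The match is in capitals, and where it lies on the other strand the capitals read TTTC, any 2 bases and TTTC.
IFI6 (chr1:27672329-27672358, gene on the minus strand): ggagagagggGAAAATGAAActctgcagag
ISG15 (chr1:1013374-1013403, plus strand): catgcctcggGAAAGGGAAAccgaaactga
IFI27 (chr14:94110631-94110660, plus strand): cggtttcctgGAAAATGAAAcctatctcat
IFI44L (chr1:78620365-78620394, plus strand): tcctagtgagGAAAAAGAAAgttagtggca
IFIT1 (chr10:89392510-89392539, plus strand): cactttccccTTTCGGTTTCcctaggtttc
IFI44 (chr1:78649761-78649790, plus strand): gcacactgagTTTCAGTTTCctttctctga
MX1 (chr21:41420559-41420588, plus strand): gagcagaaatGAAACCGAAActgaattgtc
Of the 10 interferon-stimulated genes that rose, 8 had a promoter in the RefSeq table and 7 of these held the letters. The exception was RSAD2, and OASL and TRIM22 had no entry. The letters were found in 24 of 41 promoters (58.5%) of the interferon-stimulated genes that were tested and did not pass. They were in 2 of 59 (3.39%) of the other genes that rose and in 2 of 93 (2.15%) of the genes that fell. Over all genes tested they were in 278 of 9681 promoters (2.87%), and over all promoters in 996 of 27305 (3.65%). The letters TGANTCA of an AP-1 site were in 3 of 67 promoters (4.48%) of the genes that rose and in 6 of 93 (6.45%) of those that fell. Over all genes tested these letters were in 429 of 9681 promoters (4.43%), and over all promoters in 7.76%. A match is a description of the sequence and not evidence of binding.

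The libraries of the pools were uneven, and this touches every result. Aligned fragments numbered 15615675 to 26668594 in bulk control pools and 27705683 and 32238161 in WT clones. Bulk control 2 and bulk control 3 lay farther from the WT clones than bulk control 1 did. Across the 12548 genes tested, their log2(FPKM + 1) values correlated with the WT clones at r = 0.858 to 0.875, against 0.913 and 0.935 for bulk control 1. The pools also differed among themselves, with a median SD per gene of 0.432 on the log2 scale, against 0.153 in WT clones and 0.138 in the bulk Z18 CRISPR pools. Bulk control 1 was closer to the 3 bulk Z18 CRISPR pools (r = 0.967 to 0.976) than to either of the other bulk controls (r = 0.947 and 0.932). FPKM values summed to 641536 in bulk control 2 and to 449064 to 502828 in the other 4 libraries, and repeats of the rRNA class took 30689 CPM (counts scaled to the aligned fragments) in bulk control 3, against 5977 to 9983 CPM in the other 4. Their part in the results was not tested, and the main lists are also given from bulk control 1 alone.

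Z18, the gene edited elsewhere in the series, had 38.1, 13.9 and 48.7 FPKM in bulk control pools, against 23.5 and 22 FPKM in WT clones. Its difference did not pass the test (log2 fold change 0.37, SE 0.50, limma adjusted p = 0.687), and the pools lay on both sides of the clones.

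Genes were tested where 2 or more of the 5 libraries reached an FPKM of 1. Of these 12548 genes, 100 were higher (0.797%) and 121 were lower (0.964%) in bulk control pools than in WT clones at a limma adjusted p under 0.05. The groups did not overlap for 2050 genes that were higher (16.3%) and 3639 that were lower (29%) in the pools. Fold changes were positive for 4975 of the 12548 genes and negative for 7573. Before adjustment 917 were higher and 1609 lower at p under 0.05, and counts within gene lists are to be read beside these. The median log2 fold change over all genes tested was -0.18, and it was -0.37 with TPM and -0.03 after quantile scaling, so changes near these values carry no direction. Quantile scaling also moved the balance of calls to 123 higher and 85 lower. The count of calls depended on the libraries. Without bulk control 1, 2 genes passed (IFI6 and SERPINA3), and 30 passed without bulk control 2, 86 without bulk control 3, 67 without WT clone 1 and 179 without WT clone 2. The direction of a call could not change in these fits, because the groups did not overlap for any of the 221 genes.

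Interferon-stimulated genes were higher in the pools. Of 62 tested, 10 rose and 0 fell, and 51 had a positive fold change, with a list median of 0.74 on the log2 scale against -0.18 over all genes. IFI6, a mitochondrial antiviral protein, had 427, 1188 and 1424 FPKM in bulk control pools, against 27.4 and 24.1 FPKM in WT clones. ISG15, a ubiquitin-like modifier, had 137, 479 and 254 FPKM in the pools, against 10.1 and 7.66 FPKM in the clones. IFI27 had 27.3, 43.3 and 24.6 FPKM in the pools and was listed at 0 in both clones. All 3 pools were above both clones for each of these genes. The log2 fold changes were 5.07 for IFI6 (SE 0.51, limma adjusted p = 0.00452), 4.71 for ISG15 (SE 0.49, adjusted p = 0.00487) and 4.99 for IFI27 (SE 0.38, adjusted p = 0.00221, on the log2(FPKM + 1) scale).

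The other members of the group that passed were present at lower levels. IFIT1, which binds RNA with foreign cap structures, had 25.2, 24.4 and 16.8 FPKM in bulk control pools, against 1.71 and 0.784 FPKM in WT clones (log2 fold change 3.38, SE 0.38, limma adjusted p = 0.00657). MX1, a GTPase that blocks viral replication, had 31.3, 13.8 and 27.4 FPKM in the pools, against 1.18 and 2.58 FPKM in the clones (log2 fold change 3.10, SE 0.45, adjusted p = 0.0155). OASL had 8.51, 5.31 and 8.15 FPKM in the pools, against 0.106 and 0.191 FPKM in the clones (log2 fold change 2.84, SE 0.35, adjusted p = 0.00869). On the log2(FPKM + 1) scale the spread among the pools was smaller than the gap to the clones for each of these genes. IFI44L rose by 3.18 (SE 0.38), IFI44 by 2.54 (SE 0.35), TRIM22 by 2.47 (SE 0.37) and RSAD2, the antiviral enzyme viperin, by 2.23 (SE 0.33). Close to the threshold, IFIT3 had 26.4, 18.3 and 12.6 FPKM in the pools, against 4.31 and 4.75 FPKM in the clones, with an adjusted p of 0.0589.

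From bulk control 1 alone the list median was 0.70, and 47 of 54 members were positive, whereas the median over all genes was then 0.00. Without bulk control 1 the list median was 0.73 and 1 member passed. Without bulk control 2, bulk control 3, WT clone 1 or WT clone 2 the members that passed numbered 6, 7, 8 and 8. The summed FPKM of the 62 members was 2211, 2966 and 3186 in bulk control pools, against 1013 and 986 in WT clones.

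The signalling genes upstream moved less. IRF9, the DNA-binding subunit of the STAT complex, had 18.2, 10.7 and 13.2 FPKM in bulk control pools, against 2.66 and 2.81 FPKM in WT clones (log2 fold change 1.98, SE 0.37, limma adjusted p = 0.0384). IRF9 was the only 1 of 20 receptor, JAK-STAT and IRF genes to pass, and the list median was -0.32. Without bulk control 2 that median was 0.065 and 0 members passed, and from bulk control 1 alone it was 0.049. Among 16 genes of nucleic acid sensing, DDX58, which encodes the RNA sensor RIG-I, passed with 10.0, 8.70 and 7.38 FPKM in the pools, against 1.04 and 2.14 FPKM in the clones (log2 fold change 1.93, SE 0.37, adjusted p = 0.0434). Neither IRF9 nor DDX58 passed with TPM, nor in any fit that left out a bulk control pool. STING1, the adaptor for cytosolic DNA sensing, had 11.6, 7.53 and 5.74 FPKM in the pools, against 14.9 and 18.9 FPKM in the clones, and did not pass (adjusted p = 0.206). Of the interferon genes themselves, most were near or at 0. IFNE, a type I interferon of epithelia, was the exception, with 3.50, 2.91 and 1.69 FPKM in the pools, against 1.02 and 0.994 FPKM in the clones. IFNB1 had 0.0501, 0.432 and 0 FPKM in the pools and was listed at 0 in both clones. IFNL1 reached 1.25 FPKM in bulk control 3. The genes of class I antigen presentation had 0 of 20 members past the threshold and a median of 0.31.

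In the other transfected pools several of these genes were near the level of the WT clones. IFI6 had 16.7 to 19.8 FPKM in the 3 bulk Z18 CRISPR pools and 16.9 to 32.4 FPKM in the 6 edited clones, around the level of the WT clones. IFIT1 had 0.763 to 0.918 FPKM and MX1 2.51 to 3.16 FPKM in the bulk Z18 CRISPR pools. OASL differed from these, with 3.97 to 6.18 FPKM in the bulk Z18 CRISPR pools, above the WT clones and overlapping the bulk controls. A midpoint was set between the nearest bulk control and the nearest WT clone on the log2(FPKM + 1) scale. For OASL and TRIM22 all 3 bulk Z18 CRISPR pools lay on the bulk control side of it. For the other interferon-stimulated genes that rose they lay on the WT clone side. The difference between the 2 kinds of pool was not tested.

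**Figure D1:**
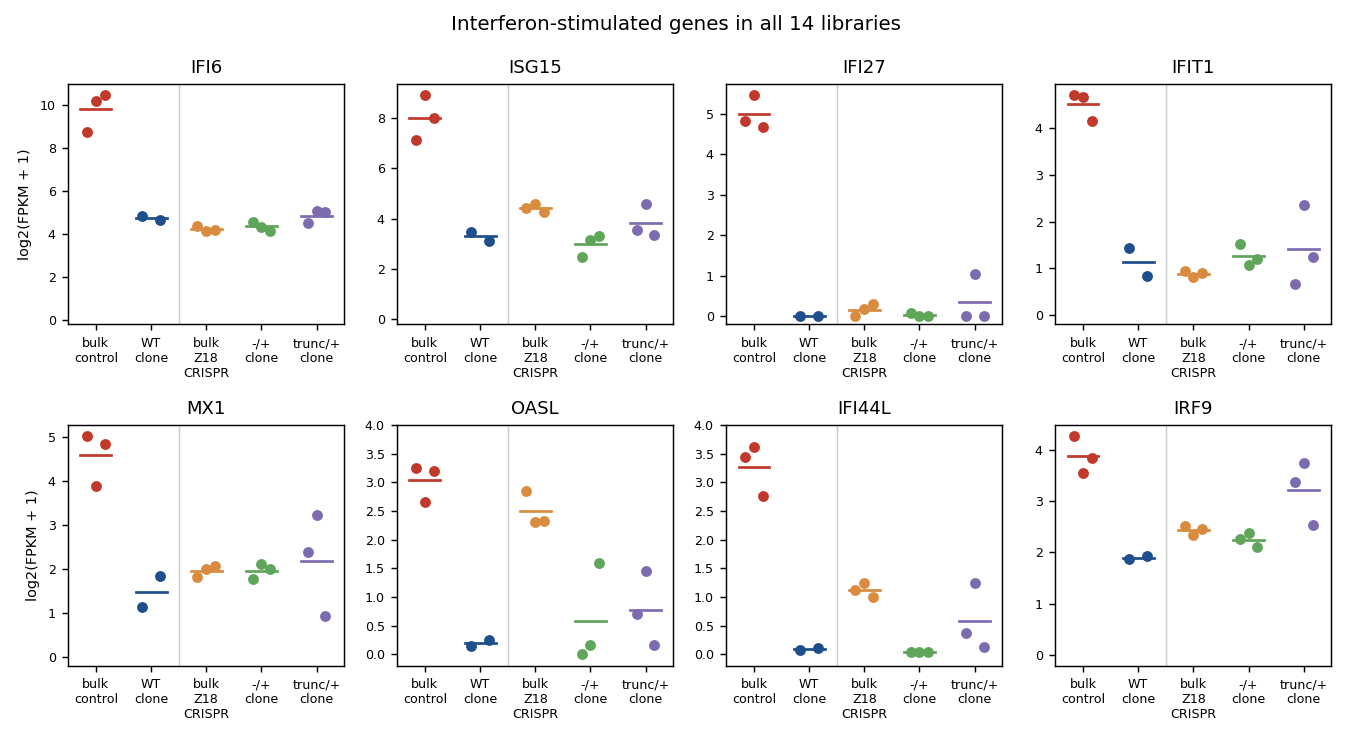
Levels of 8 interferon pathway genes as log2(FPKM + 1) in all 14 libraries, with 1 point per library and a bar at each group mean. For IFI6 the 3 bulk control pools lie at 427 to 1424 FPKM, above both WT clones at 24.1 and 27.4 FPKM and above the bulk Z18 CRISPR pools at 16.7 to 19.8 FPKM.

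Genes of the melanocytic and neural crest state were lower in the pools. SOX10, the transcription factor that maintains the lineage, had 18.4, 10.8 and 20.4 FPKM in bulk control pools, against 180 and 115 FPKM in WT clones (log2 fold change -3.09, SE 0.38, limma adjusted p = 0.00824). ERBB3, a neuregulin receptor and SOX10 target, had 3.45, 3.16 and 4.86 FPKM in the pools, against 63.7 and 38.5 FPKM in the clones (log2 fold change -3.41, SE 0.37, adjusted p = 0.00612). SOX5, a partner of SOX factors in the neural crest, had 0.834, 1.23 and 1.01 FPKM in the pools, against 51.9 and 17.7 FPKM in the clones (log2 fold change -3.96, SE 0.48, adjusted p = 0.00824). In each case every pool was below both clones. The intermediate filament gene NES had 8.20, 4.33 and 9.21 FPKM in the pools, against 51.4 and 81.7 FPKM in the clones, and fell by 3.05 on the log2 scale (SE 0.40, adjusted p = 0.0101). The endothelin receptor gene EDNRB had 0.626, 0.391 and 0.365 FPKM in the pools, against 5.98 and 2.78 FPKM in the clones (log2 fold change -1.82, SE 0.35, adjusted p = 0.0431).

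Of 13 melanocyte lineage genes tested, 0 rose and 3 fell, with a median of -1.11, and of 12 neural crest and glial genes 1 rose and 4 fell, with a median of -1.95. The second list was drawn up after its values were seen. Its member that rose was SOX9, which also counts in the dedifferentiated melanoma list below. ERBB3 counts both in the melanocyte lineage list and among the EGFR ligands and receptors below. From bulk control 1 alone the medians were -0.99 and -1.41. With no filter on low values they were -0.52 over 21 members and -1.885 over 14 members. The number of members that passed depended on the libraries, with 0 in either list without bulk control 1 or without bulk control 2. S100B had 65.7 FPKM in WT clone 1 and 6.88 FPKM in WT clone 2, against 0.514 to 2.07 FPKM in the pools, and did not pass (adjusted p = 0.0722). The pigmentation genes did not define either group. MLANA and TYR were listed at 0 in all 5 libraries, PMEL stayed under 1 FPKM, and MITF, the regulator of pigmentation, had 9.86, 0.512 and 2.27 FPKM in the pools, against 5.70 and 2.48 FPKM in the clones, which overlap.

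SOX9, the factor that often replaces SOX10 in dedifferentiated melanoma, went the other way from SOX10. It had 15.3, 8.37 and 15.0 FPKM in bulk control pools, against 0.0929 and 1.06 FPKM in WT clones (log2 fold change 3.17, SE 0.44, limma adjusted p = 0.0133). The rest of the dedifferentiated melanoma list did not follow, with 1 of 26 members rising and 1 falling and a median of -0.40, which was -0.77 without WT clone 1 and -0.12 from bulk control 1 alone. The member that fell was TNC, which encodes tenascin C, a matrix glycoprotein of invasive cells, with 11, 3.24 and 10.2 FPKM in the pools, against 120 and 55 FPKM in the clones (log2 fold change -3.31, SE 0.53, adjusted p = 0.0218). The receptor gene AXL had 78.1, 44.4 and 158 FPKM in the pools, against 61.5 and 144 FPKM in the clones, and the groups overlapped.

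Genes of class II antigen presentation, a list also drawn up after its values were seen, were lower in the pools. CD74, the invariant chain, had 81.6, 50.2 and 37.4 FPKM in bulk control pools, against 1131 and 389 FPKM in WT clones (log2 fold change -3.61, SE 0.51, limma adjusted p = 0.0144). HLA-DRA, the alpha chain of HLA-DR, had 22.7, 18.4 and 8.95 FPKM in the pools, against 387 and 105 FPKM in the clones (log2 fold change -3.61, SE 0.58, adjusted p = 0.0212). HLA-DPA1 and HLA-DMB also fell, by 2.73 (SE 0.47) and 2.39 (SE 0.47) on the log2 scale. All 10 members tested were negative, 4 passed, and the median was -2.25, or -2.31 from bulk control 1 alone. The clones differed within the group, with WT clone 1 above WT clone 2 for each of these genes. Without WT clone 2, 8 members passed, 2 passed without WT clone 1, and 0 passed without any 1 of the 3 pools. CIITA, the activator of these genes, had 1.08, 0.202 and 1.03 FPKM in the pools, against 8.87 and 3.00 FPKM in the clones, with an adjusted p of 0.0821.

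CD74 and HLA-DRA are also markers of haematopoietic cells, and several other defining markers of such cells were absent. PTPRC and CD3E were listed at 0 in all 5 libraries, and SPI1 and CD14 stayed under 1 FPKM. CORO1A had 3.07, 3.74 and 2.12 FPKM in the pools, against 10.1 and 5.91 FPKM in the clones, and LYZ had 2.39, 0.770 and 0.847 FPKM in the pools, against 7.54 and 0.575 FPKM in the clones. Neither passed. Of the 10 haematopoietic markers 4 were tested and 2 fell, and the summed FPKM of all 10 was 49.8 to 111 in bulk control pools, against 1537 and 501 in WT clones. For epithelial cells, 5 of 13 markers were tested and 0 passed, 3 of them positive and 2 negative, with a sum over all 13 of 720.1 to 1114 FPKM in the pools, against 214.5 and 568 FPKM in the clones, most of it from KRT8 and KRT18. KRT8 had 181, 211 and 137 FPKM in the pools, against 8.90 and 59.4 FPKM in the clones (limma adjusted p = 0.0704). The negative members were KRT14, with 2.89, 2.01 and 1.37 FPKM in the pools, against 15.5 and 0.976 FPKM in the clones, and CLDN4, with 2.53, 2.55 and 3.95 FPKM in the pools, against 8.62 and 4.29 FPKM in the clones. CDH1, the epithelial cadherin, was at 0 throughout. The 10 fibroblast markers, of which 0 of the 2 tested passed, summed to 2.73 to 3.96 FPKM in the pools, against 9.76 and 7.47 FPKM in the clones, with THY1 at 0. The 8 endothelial markers summed to 0.102 to 0.339 FPKM in the pools, against 2.42 and 2.05 FPKM in the clones, with CLDN5, EMCN and ERG at 0, and KDR, the only 1 of 8 tested, had 0.0104 to 0.115 FPKM in the pools, against 2.28 and 1.70 FPKM in the clones (log2 fold change -1.47, SE 0.26, adjusted p = 0.0310). The part of other cells in the results was not tested.

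The EGFR ligand genes AREG and HBEGF and the metalloproteinase genes MMP1 and MMP3 rose in the pools. AREG, which encodes the EGFR ligand amphiregulin, had 49.7, 76.1 and 56.5 FPKM in bulk control pools, against 3.17 and 2.61 FPKM in WT clones (log2 fold change 3.97, SE 0.33, limma adjusted p = 0.00275). HBEGF, another ligand of the receptor, had 17.6, 18 and 20.2 FPKM in the pools, against 4.59 and 4.28 FPKM in the clones (log2 fold change 1.85, SE 0.32, adjusted p = 0.0300). The receptor itself did not pass, with 7.21, 1.69 and 9.61 FPKM of EGFR in the pools, against 1.74 and 4.19 FPKM in the clones. Of 7 EGFR ligands and receptors 2 rose and 1, ERBB3, fell, and this list was drawn up after its values were seen. MMP1, the interstitial collagenase, had 33.8, 26.4 and 19.6 FPKM in the pools, against 0.431 and 0.988 FPKM in the clones (log2 fold change 4.0, SE 0.39, adjusted p = 0.00438). MMP3, stromelysin, had 11.4, 12.2 and 9.14 FPKM in the pools, against 0 and 0.115 FPKM in the clones (log2 fold change 3.49, SE 0.34, adjusted p = 0.00438). These metalloproteinases were the 2 of 30 NF-kB and inflammatory genes that rose, and the median of that list was 0.25. It was -0.27 without WT clone 1, where 2 members rose and 1 fell, and 0.63 without WT clone 2, where 4 rose, and 0 passed without bulk control 1. IL1A, which encodes the cytokine interleukin 1 alpha, had 4.76, 3.79 and 2.45 FPKM in the pools, against 10.7 and 66.1 FPKM in the clones, and did not pass.

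Stress and growth arrest genes included GDF15, which had the largest increase on the log2(FPKM + 1) scale. With a pseudocount of 0.1 its log2 fold change was 7.10, below those of IFI27 (8.27) and ANXA10 (7.31), which are listed at 0 in both clones. GDF15, a secreted stress cytokine, had 135, 143 and 245 FPKM in bulk control pools, against 0.641 and 1.91 FPKM in WT clones (log2 fold change 6.27, SE 0.40, limma adjusted p = 0.000734). FDXR, a mitochondrial reductase, had 40.7, 60.9 and 69.7 FPKM in the pools, against 14.4 and 10.2 FPKM in the clones (log2 fold change 2.11, SE 0.35, adjusted p = 0.0265). CDKN1A, the p21 cell cycle inhibitor, had 318, 232 and 112 FPKM in the pools, against 84.8 and 47.3 FPKM in the clones, and did not pass (log2 fold change 1.66, SE 0.48, adjusted p = 0.122).

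HMOX1, haem oxygenase, had 73.0, 38.5 and 31.0 FPKM in bulk control pools, against 6.21 and 4.19 FPKM in WT clones (log2 fold change 2.89, SE 0.42, limma adjusted p = 0.0155). It was the only 1 of 22 NRF2 antioxidant genes to pass, and the median of the list was 0.49. FTH1, the ferritin heavy chain, had 7002, 9684 and 2778 FPKM in the pools, against 868 and 946 FPKM in the clones, and missed the threshold (adjusted p = 0.0661). SQSTM1, the autophagy receptor p62, had 629, 703 and 914 FPKM in the pools, against 153 and 153 FPKM in the clones (log2 fold change 2.27, SE 0.35, adjusted p = 0.0186). CTSL, a lysosomal protease, rose by 1.57 (SE 0.30, adjusted p = 0.0413), and these were the 2 of 28 lysosomal genes that passed, with a list median of 0.25, or -0.0093 without bulk control 1. No heat shock chaperone passed (0 of 18, median 0.39), and before adjustment 4 were higher and 0 lower at p under 0.05.

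Replication-dependent histone genes were higher in the pools, although their mRNAs normally end without a poly(A) tail and the libraries were poly(A) selected. H2AC18 had 204, 156 and 123 FPKM in bulk control pools, against 10.7 and 10.0 FPKM in WT clones (log2 fold change 3.80, SE 0.33, limma adjusted p = 0.00275). H2AC6 had 37.3, 39.0 and 50.8 FPKM in the pools, against 2.11 and 3.51 FPKM in the clones (log2 fold change 3.52, SE 0.35, adjusted p = 0.00438). H2BC12 rose by 2.93 (SE 0.52) and H1-2, a linker histone, by 2.87 (SE 0.55). Of 11 histone genes tested 6 rose and 0 fell, all 11 were positive, and the median was 2.5. From bulk control 1 alone it was 3.28 over 7 members, and without bulk control 1 it was 2.41 with 0 members passing. Several histone genes are near copies, so reads could be split between them. Histone mRNAs are normally made while DNA is replicated, and of 37 DNA replication genes 0 passed, with a median of -0.62. Before adjustment 0 were higher and 7 lower at p under 0.05.

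Cell division and lipid synthesis genes had low medians with no member past the threshold. Of 33 mitosis genes 29 were negative, with a median of -0.90. Before adjustment 16 were lower and 1 was higher at p under 0.05. Over all 12548 genes 7573 were negative, and 1609 were lower and 917 higher before adjustment. MKI67, the proliferation marker Ki-67, had 16.5, 2.16 and 3.52 FPKM in bulk control pools, against 31.7 and 31.2 FPKM in WT clones (log2 fold change -2.37, SE 0.65, limma adjusted p = 0.112). CENPF, a kinetochore protein, had 23.4, 10.2 and 20.4 FPKM in the pools, against 57.1 and 64.9 FPKM in the clones (adjusted p = 0.0611). Of 32 sterol and fatty acid genes 27 were negative, with a median of -0.79, and before adjustment 13 were lower and 0 higher at p under 0.05. INSIG1, which restrains sterol synthesis, had 10.6, 10.5 and 18.6 FPKM in the pools, against 38.0 and 31.5 FPKM in the clones (adjusted p = 0.0994). From bulk control 1 alone the medians were -0.55 for DNA replication, -0.43 for mitosis and -0.69 for lipid synthesis. Nuclear-encoded respiratory chain genes had a median of 0.53, or 0.27 without bulk control 2 and 0.88 without bulk control 3, with 39 of 48 positive, 0 past the threshold, and before adjustment 9 higher and 0 lower at p under 0.05.

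Genes of the MAPK pathway, which is driven by mutant BRAF in this line, had a median of -0.55 over 22 members, -0.19 without bulk control 2 and -0.22 from bulk control 1 alone. SPRY2, a feedback inhibitor, had 32.9, 24.3 and 35.3 FPKM in bulk control pools, against 131 and 84.7 FPKM in WT clones and fell by 1.76 on the log2 scale (SE 0.34, limma adjusted p = 0.0431). DUSP6, another feedback gene, had 69.8, 53.4 and 74.8 FPKM in the pools, against 68.1 and 86.8 FPKM in the clones. NR4A1, an immediate early gene, had 8.13, 8.49 and 6.78 FPKM in the pools, against 63.0 and 34.2 FPKM in the clones (log2 fold change -2.44, SE 0.36, adjusted p = 0.0165), and it was the only 1 of 23 immediate early genes to pass. Of 22 TGF-beta and BMP response genes 2 rose, ID3 and ID1, which encode inhibitors of differentiation factors. ID3 had 142, 206 and 299 FPKM in the pools, against 30.2 and 27.1 FPKM in the clones (log2 fold change 2.81, SE 0.37, adjusted p = 0.0105). Of 24 YAP and TEAD targets 2 rose. ANKRD1 had 20.3, 20 and 17.2 FPKM in the pools, against 1.19 and 3.70 FPKM in the clones (log2 fold change 2.65, SE 0.41, adjusted p = 0.0191). GADD45A rose by 1.80 (SE 0.31, adjusted p = 0.0292). The median of that list was -0.20, near that of all genes, and it was 0.14 without bulk control 2 and 0.20 without WT clone 2.

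Of 41 collagen and matrix genes 3 rose and 1 fell, and the median was -0.63, or -0.27 without bulk control 2 and -0.38 without WT clone 2. Besides MMP1 and MMP3, the member that rose was LAMB3, a laminin chain, with 40.1, 18.1 and 39.0 FPKM in bulk control pools, against 3.48 and 6.89 FPKM in WT clones (log2 fold change 2.41, SE 0.45, limma adjusted p = 0.0382). Of 24 cancer-testis antigens 2 rose, SPANXA1 and SSX2. SPANXA1 had 11.4, 12.2 and 18.7 FPKM in the pools, against 0.00455 and 0.114 FPKM in the clones (log2 fold change 3.80, SE 0.37, adjusted p = 0.00438). Both belong to families of near-identical copies, so their reads are uncertain. Of 26 genes that silence transposable elements 0 passed, with a median of -0.45, and of 35 nuclear RNA surveillance genes 0 passed, with a median of -0.30. From bulk control 1 alone these medians were -0.18 and -0.091. Without bulk control 2 they were -0.29 and -0.14, and the surveillance median was -0.070 without bulk control 3. Before adjustment, 0 silencing genes were higher and 5 lower at p under 0.05, and 2 surveillance genes were higher and 3 lower. Over all 12548 genes 917 were higher and 1609 lower.

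**Figure D2:**
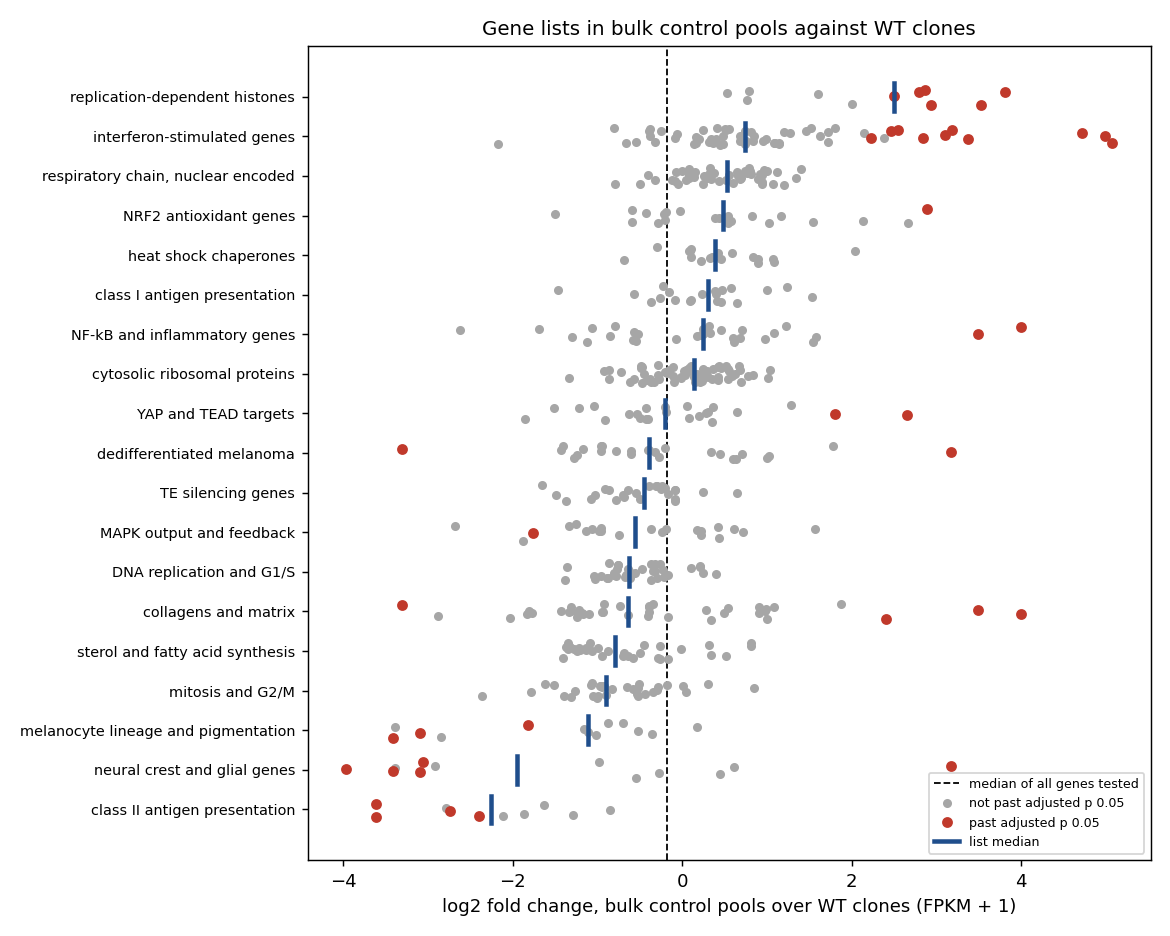
Log2 fold changes of the tested members of 19 gene lists, bulk control pools over WT clones, with 1 point per gene, red where the limma adjusted p was under 0.05, a blue bar at each list median and a dashed line at the median of all genes (-0.18). Histone genes (median 2.5) and interferon-stimulated genes (0.74) lie to the right, and neural crest (-1.95) and class II genes (-2.25) to the left.

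The genes with the largest changes outside these lists were single genes of varied function. SERPINA3, a secreted protease inhibitor, had the largest decrease, with 0.603, 1.58 and 1.13 FPKM in bulk control pools, against 140 and 136 FPKM in WT clones (log2 fold change -6.08, SE 0.36, limma adjusted p = 0.000721). SERPINA3 passed in each fit that left out 1 pool, but not in the fit on all 14 libraries (limma adjusted p = 0.051). UCA1, C19orf33 and GAS7, given below, did not pass in that fit either (limma adjusted p = 0.055, 0.087 and 0.054). UCA1, a long noncoding RNA, had 151, 48.9 and 40.5 FPKM in the pools, against 0.236 and 2.27 FPKM in the clones (log2 fold change 5.08, SE 0.62, adjusted p = 0.00824). CPA4, a carboxypeptidase, rose by 4.70 (SE 0.57, adjusted p = 0.00824) and KCNMA1, a calcium-activated potassium channel, by 4.12 (SE 0.42, adjusted p = 0.00452). ANXA10, an annexin, had 18.9, 19.6 and 10.5 FPKM in the pools and was listed at 0 in both clones. BASP1 had 31.2, 29.0 and 30.4 FPKM in the pools, against 0.0672 and 2.54 FPKM in the clones. C19orf33 had 497, 1459 and 441 FPKM in the pools, against 10.8 and 89.1 FPKM in the clones (log2 fold change 4.39, SE 0.82, adjusted p = 0.0384).

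Among the decreases, DEPDC7 had 7.36, 10.3 and 8.03 FPKM in bulk control pools, against 107 and 115 FPKM in WT clones (log2 fold change -3.56, SE 0.31, limma adjusted p = 0.00275). MEOX2, a homeobox factor, had 4.44, 3.58 and 2.26 FPKM in the pools, against 52.6 and 42.5 FPKM in the clones (log2 fold change -3.48, SE 0.37, adjusted p = 0.00487). SYTL5, a vesicle trafficking protein, had 3.11, 2.42 and 1.94 FPKM in the pools, against 59.1 and 36.4 FPKM in the clones (log2 fold change -3.78, SE 0.38, adjusted p = 0.00438). The clones were close to each other for these genes. GAS7 and the noncoding gene LOC728715 were less even, with 29.9 and 254 FPKM in WT clone 1 and 9.91 and 52.1 FPKM in WT clone 2. GAS7 had 0.395 to 0.480 FPKM and LOC728715 7.15 to 15.4 FPKM in the pools, and their log2 fold changes were -3.69 (SE 0.46, adjusted p = 0.00869) and -3.22 (SE 0.62, adjusted p = 0.0431). AGMO, an enzyme that cleaves ether lipids, had 0.929 to 1.37 FPKM in the pools, against 18.6 and 19.6 FPKM in the clones (log2 fold change -3.26, SE 0.34, adjusted p = 0.00487).

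The other groups were set beside these values. GDF15 had 113 to 216 FPKM in the 3 bulk Z18 CRISPR pools and 1.03 to 7.77 FPKM in the 6 edited clones. MMP1 had 99.6 to 197 FPKM in those pools and 0.226 to 10.2 FPKM in those clones. H2AC18 had 134 to 191 FPKM in those pools and 6.82 to 39.8 FPKM in those clones. For these genes both kinds of pool lay above all 8 clones. ERBB3 had 2.78 to 4.35 FPKM in the bulk Z18 CRISPR pools and 10.0 to 80.0 FPKM in the edited clones, and SOX10 27.0 to 33.6 FPKM in those pools and 47.8 to 212 FPKM in those clones. By the midpoint used above, all 6 edited clones lay on the WT clone side for 27 of the 100 genes that rose (27%). The same held for 27 of the 121 that fell (22.3%). The shares were 32.7% and 29.5% for genes without overlap that did not pass. All 3 bulk Z18 CRISPR pools lay on the bulk control side for 80% and 82.6%, against 55.4% and 54.3%. Many genes thus varied from clone to clone. SERPINA3 had 0.237 to 0.645 FPKM in the bulk Z18 CRISPR pools but 0.116 to 373 FPKM in the edited clones, with a median of 84.7. UCA1 had 94.8 to 123 FPKM in those pools and 0.168 to 134 FPKM in the edited clones, so that the edited clones spanned both the pools and the WT clones. CD74 had 156 to 172 FPKM in the bulk Z18 CRISPR pools, above the bulk controls, and 203 to 1436 FPKM in the edited clones.

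**Figure D3:**
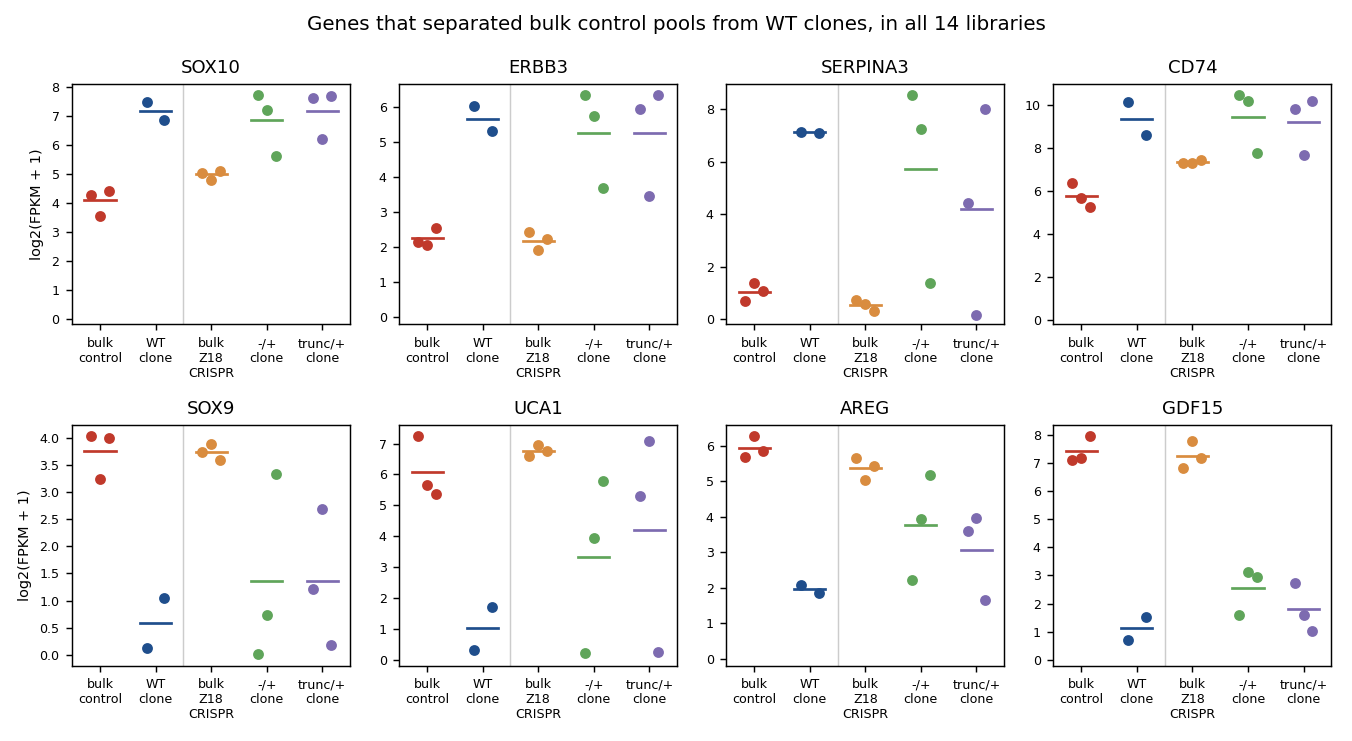
Levels of 8 genes as log2(FPKM + 1) in all 14 libraries, with 1 point per library and a bar at each group mean. SOX10, ERBB3, SERPINA3 and CD74 are lower in the 3 bulk control pools than in both WT clones and SOX9, UCA1, AREG and GDF15 are higher. Several edited clones lie on the side of the pools for SERPINA3 (down to 0.116 FPKM) and UCA1 (up to 134 FPKM).

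The WT clones also differed from each other, and the pools were set beside these differences. Of the 12548 genes 763 lay more than 1 log2 unit apart between the 2 clones, 364 with WT clone 1 higher and 399 with WT clone 2 higher. The mean of the pools lay between the clones for 146 of the 364 and 248 of the 399. It lay below both clones for 179 of the 364 and 52 of the 399, and above both for 39 and 99. Genes with a high WT clone 1 and pools below both clones included FXYD3, an ion transport regulator, with 2.17, 2.40 and 1.38 FPKM in bulk control pools, against 106 and 3.77 FPKM in WT clone 1 and WT clone 2. S100A1, NFATC2 and HAPLN1 showed the same order. S100A1 had 1.74, 3.68 and 2.92 FPKM in the pools, against 117 and 4.97 FPKM in the clones. The activin antagonist FST had 85.7, 122 and 79.0 FPKM in the pools, between WT clone 1 at 155 FPKM and WT clone 2 at 6.50 FPKM.

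Among genes with a high WT clone 2 several had pools in between. ESM1, an endothelial proteoglycan also made by tumours, had 91.8, 115 and 110 FPKM in bulk control pools, against 0.574 FPKM in WT clone 1 and 284 FPKM in WT clone 2. SPP1, which encodes osteopontin, had 62.5, 67.1 and 34.7 FPKM in the pools, against 0.697 and 108 FPKM in the clones. FN1, which encodes fibronectin, had 13.9, 5.74 and 9.51 FPKM in the pools, against 2.71 and 139 FPKM in the clones. SPANXB1 and SPANXA2 were likewise near 0 in WT clone 1, at 0.217 and 0.965 FPKM, and at 222 and 205 FPKM in WT clone 2. SSX2B had the reverse order, with 31.2 FPKM in WT clone 1 and 0 in WT clone 2, and 3.4 to 4.27 FPKM in the pools. With 1 library per clone these are differences between libraries, and copies within the SPANX and SSX families share reads. RNA18SN5, a copy of the 18S rRNA gene, had 0.00396 FPKM in WT clone 1 and 124 FPKM in WT clone 2, against 44.7 to 192 FPKM in the pools.

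**Figure D4:**
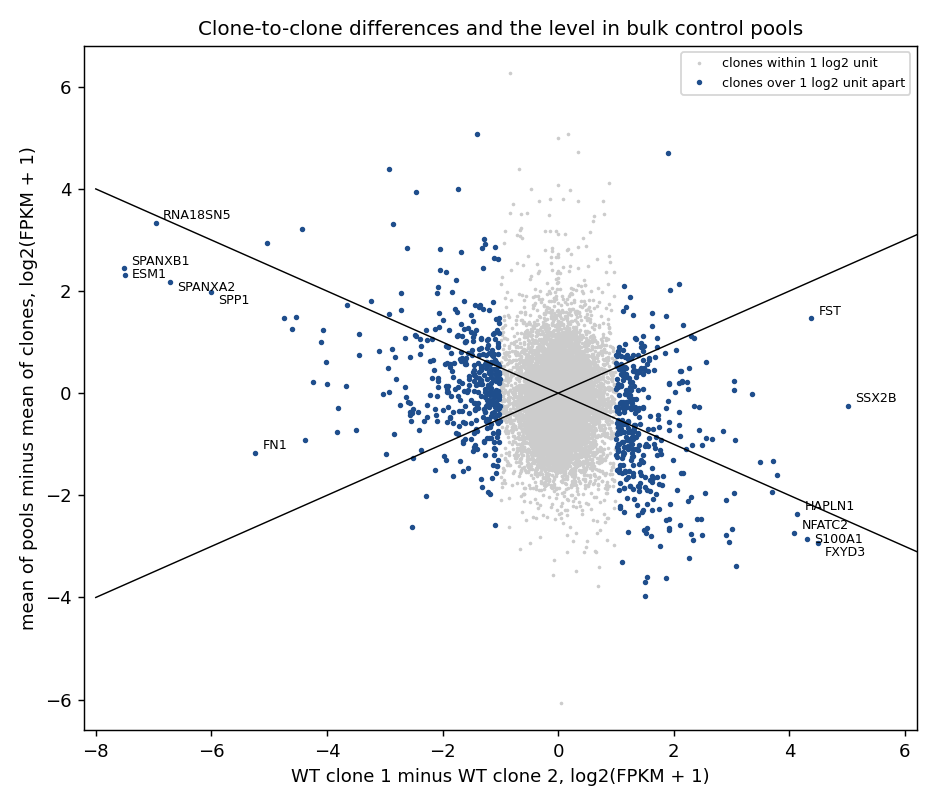
Difference between WT clone 1 and WT clone 2 (x axis) against the mean of the 3 bulk control pools minus the mean of the clones (y axis), both in log2(FPKM + 1), with 1 point per gene. Points between the crossing lines at the left and right have pools between the clones, as for ESM1 and SPP1, and points under both lines at the right, as for FXYD3, have pools below both clones.

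Transposable element (TE) RNA was compared by class, from estimated counts of sense fragments scaled to aligned fragments (CPM). SINEs, short elements made mostly of Alu copies, had 16512, 29161 and 21337 CPM in bulk control pools, against 14794 and 14640 CPM in WT clones. LINEs, the class of LINE-1, had 9690, 7540 and 5299 CPM in the pools, against 9960 and 11172 CPM in the clones. DNA transposons had 2957, 2343 and 2326 CPM in the pools, against 3183 and 3379 CPM in the clones. SINEs were thus higher and LINEs and DNA transposons lower in all 3 pools than in both clones, with log2 differences of 0.56, -0.53 and -0.38 and a two-sided exact permutation p of 0.2 each, where 10 splits allow no p below 0.1. LTR elements, which include endogenous retroviruses, had 6234, 4731 and 4430 CPM in the pools, against 4842 and 5726 CPM in the clones, with a log2 difference of -0.05 (exact permutation p = 0.8). The LTR difference ranged from -0.20 to 0.068 when single libraries were left out, above 0 without bulk control 3 or WT clone 2, and the other 3 differences kept their sign. The LINE difference was -0.30 without bulk control 3 and the SINE difference was 0.35 without bulk control 2. Scaled to fragments assigned to any sense TE instead of aligned fragments, the differences were 0.21 for SINEs (exact permutation p = 0.6), -0.89 for LINEs (p = 0.2), -0.73 for DNA transposons (p = 0.2) and -0.41 for LTR elements (p = 0.4).

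Within SINEs the Alu family had 13538, 26808 and 18767 CPM in bulk control pools, against 11743 and 11481 CPM in WT clones. MIR elements, older SINEs, had 2836, 2276 and 2461 CPM in the pools, against 2933 and 3020 CPM in the clones. By gene context the difference was smallest in exons. SINE copies antisense to a gene had 891, 2066 and 1369 CPM in the pools, against 531 and 538 CPM in the clones, and copies outside genes had 1511, 3628 and 2232 CPM in the pools, against 930.4 and 929.5 CPM in the clones. In exons the values were 9070, 12644 and 9676 CPM in the pools, against 8707 and 8700 CPM in the clones. The log2 differences were 1.35 for antisense copies, 1.31 outside genes, 0.74 in introns and 0.25 in exons. Bulk control 2 was the highest and bulk control 1 the lowest pool in each context. Alu copies derive from the 7SL RNA of the signal recognition particle, and repeats of that RNA had 489, 1126 and 650 CPM in the pools, against 174 and 216 CPM in the clones.

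**Figure D5:**
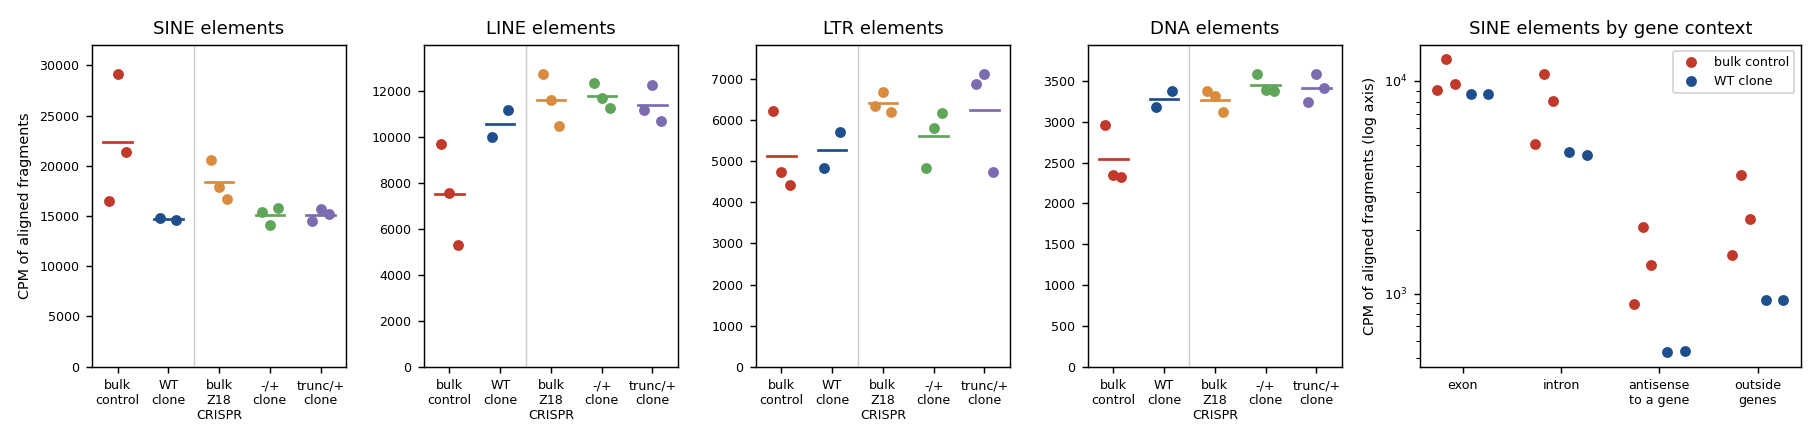
Sense TE signal in CPM of aligned fragments per library for 4 classes in all 14 libraries, with a bar at each group mean, and SINE signal by gene context in the 3 bulk control pools and 2 WT clones (log axis). SINE signal outside genes was 1511 to 3628 CPM in the pools and 930.4 and 929.5 CPM in the clones, and in exons the groups were closer.

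Of 16692 TE loci tested, 218 were higher (1.31%) and 77 were lower (0.461%) in bulk control pools at an edgeR adjusted p under 0.05. No locus passed without bulk control 1, without bulk control 2 or without bulk control 3 (0 each), 3 rose and 10 fell without WT clone 1, and 57 rose and 50 fell without WT clone 2. In the fit on all 14 libraries 261 rose and 226 fell. Of 8716 SINE loci tested 178 rose (2.04%) and 19 fell (0.218%). Of 2228 LTR loci 22 rose (0.987%) and 21 fell (0.943%), and of 4256 LINE loci 9 rose (0.211%) and 32 fell (0.752%). SINE loci rose in 42 of 465 cases antisense to genes and 76 of 817 outside genes, with 3 falling in each, and in 18 of 4298 in exons with 12 falling. The median log2 fold change was 2.12 for antisense SINE loci, 2.20 for those outside genes and 0.27 for those in exons, against 0.13 over all loci. A locus could pass the count filter through the pools alone, which can raise these counts and medians. Summed over all SINE copies with a count, the log2 differences were 1.35, 1.31 and 0.25. The median over all loci tested was 0.56 without WT clone 1 and 0.60 without WT clone 2. No subfamily passed with edgeR (0 of 943, or 0%), and before adjustment 52 were higher and 83 lower at p under 0.05. AluYa5, a young Alu subfamily, had the smallest adjusted p of the subfamilies chosen for description, with 51.6, 176 and 94.1 CPM in the pools, against 12.7 and 15.1 CPM in the clones (log2 fold change 2.95, SE 0.54, edgeR adjusted p = 0.0718). L1HS, the youngest LINE-1 subfamily, had 87.4, 44.6 and 37.0 CPM in the pools, against 107 and 109.6 CPM in the clones (adjusted p = 0.336).

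Loci in exons were set beside their host genes. The 31 exonic loci that rose lay in 21 tested genes, of which 20 had a positive fold change and 10 rose, and the 26 that fell lay in 16 tested genes, which were all negative and of which 11 fell. The 48 intronic loci that rose had 26 tested hosts, and 8 of these were positive, and the 20 intronic loci that fell had 8 tested hosts, which were all negative and of which 5 fell. An AluJb copy lay in a UTR exon of IFI44L (hg38, chromosome 1, 78642344 to 78642598), with 8.47, 16 and 2.24 CPM in bulk control pools and 0 in both WT clones, at least 178-fold higher with a floor of 3 counts over the clones. An LTR10C copy on chromosome 19 (15837933 to 15838455), 1605 bases from UCA1 on the same strand, had 10.4, 51.2 and 66.8 CPM in the pools, against 0.0361 and 0.0620 CPM in the clones (edgeR adjusted p = 0.00404). Another 3 increases were in Alu copies inside noncoding genes, AluSx1 and AluY in introns and AluSg antisense.

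Among loci that fell, an 84-base MIR3 copy lay in a UTR exon of GAS7 (chromosome 17, 9912354 to 9912437) and had 0 CPM in all bulk control pools, against 4.91 and 1.46 CPM in WT clones. An L1PA5 copy of 4894 bases lay in an intron of AGMO (chromosome 7, 15272133 to 15277026) and had 0 CPM in the pools, against 1.84 and 1.43 CPM in the clones. Their host genes also fell. An AluSp copy antisense to MOK on chromosome 14 had 0 CPM in the pools, against 7.87 and 1.12 CPM in the clones, at least 91.1-fold lower. The others were an LTR8A and an SVA_D copy outside genes and a MIR copy in an intron of C10orf90. The SVA_D copy was also at 0 in the 3 bulk Z18 CRISPR pools, whereas the other 5 had 0.0320 to 0.534 CPM there.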

How the data were processed

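RNA was poly(A) selected, made into stranded libraries and sequenced in 14 A375 libraries, of which 5 were compared. Gene-level FPKM and TPM come from the authors' StringTie run on RefSeq annotation. The TE files hold, per the file headers, an estimated count and a count of uniquely mapped fragments for each copy, which the authors obtained with SQuIRE on hg38. The submitters' notes name cutadapt 4.6. Rows of 1 symbol were added up, and genes that reached an FPKM of 1 in 2 or more libraries entered limma-trend (limma 3.58.1) as log2(FPKM + 1). That scale understates changes of low genes. Estimated counts of sense loci were rounded and tested with the quasi-likelihood test of edgeR 4.0.16 (R 4.3.3), with aligned fragments as library size and a minimum count of 10. DESeq2 1.42.0 was an alternative. Benjamini-Hochberg adjustment ran over every feature of a fit, with a threshold of 0.05. Class sums were compared by two-sided exact permutation tests. Scripts for both fits were tested on simulated data. Loci were placed against GENCODE release 44.

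Named genes were the 12 largest changes in each direction that passed without overlap, up to 4 members of each list with a call (otherwise up to 3), Z18, 6 loci and 6 clone-to-clone differences in each direction, and chromosomes departing by over 0.1. Members and lists were chosen with earlier results of these data known, and other genes named were chosen after their values were seen. No column lacked a sample (0). Some genes, 1 gene list and 1 locus that these rules name are not reported here.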

Additional observations from a re-analysis of the deposited data

How the results depend on the processing

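The 221 gene calls became 138 with a pseudocount of 0.1, 0 with no filter on low values, 2159 in a fit on all 14 libraries, 4442 against all 8 clones and 1282 with the replicate block. With 1 library left out they ranged from 2 to 179. From bulk control 1 alone, an alternative chosen after seeing the data, 0 genes passed. TPM gave 221 calls (186 shared) and quantile scaling 208 (172 shared). The 295 TE locus calls became 487 in the fit on all 14 libraries, 486 with the replicate block, 765 with DESeq2 on aligned fragments and 690 with its own size factors, and ranged from 0 to 107 with 1 library left out. The 0 subfamily calls became 1 with uniquely mapped fragments, 93 in the fit on all 14 libraries and 34 with the replicate block, and ranged from 0 to 22 with 1 library left out. The median over subfamilies was 0.07 with TMM scaling and -0.27 without it on the log2 scale. The LTR class difference turned to 0.045 without bulk control 3 and 0.068 without WT clone 2, within a range of -0.20 to 0.068. Scaled to fragments assigned to any sense TE, the class differences were 0.21 for SINE, -0.89 for LINE, -0.73 for DNA and -0.41 for LTR elements. The cause of these shifts was not tested. A fit with 1 WT clone assumes that it varies like the pools. The block used numbers that pools and clones merely share, and deviations of same-numbered libraries correlated at -0.082 and 0.008, so the libraries were not treated as pairs. None of 128 genes checked reversed in 13 alternatives and none of the 12 named loci in 12. Leaving out a library cannot reverse a gene or locus whose groups do not overlap, as for all 12 named loci. The 128 do not hold every gene named here. Genes with pools between the WT clones, such as ESM1, SPP1 and FN1, were not among them. Their direction turns with the WT clone that is left out. The depth behind gene values is unknown, since FPKM keep no counts.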

Other observations

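Other genes that rose, chosen after their values were seen, belong to none of the lists. KRT81, a hair keratin, had 190, 261 and 189 FPKM in bulk control pools, against 16.6 and 12.9 FPKM in WT clones (log2 fold change 3.76, SE 0.32, limma adjusted p = 0.00275), although keratin genes are near copies of each other. HBE1, the embryonic beta-like globin, had 49.1, 88.7 and 63.1 FPKM in the pools, against 5.32 and 2.69 FPKM in the clones (log2 fold change 3.77, SE 0.39, adjusted p = 0.00462). SPHK1, which makes sphingosine 1-phosphate, had 37.8, 50.1 and 70.5 FPKM in the pools, against 6.33 and 4.41 FPKM in the clones (log2 fold change 3.05, SE 0.37, adjusted p = 0.00824). SLPI, a secreted protease inhibitor, had 5.68, 8.76 and 8.83 FPKM in the pools and was listed at 0 in both clones. ITM2A had 5.69, 6.61 and 4.71 FPKM in the pools and was also listed at 0 in both clones. The groups did not overlap for any of these 5 genes.

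The 7SL RNA gene RN7SL3 had 99.4, 159 and 127 FPKM in bulk control pools, against 11.1 and 18 FPKM in WT clones (log2 fold change 3.07, SE 0.35, limma adjusted p = 0.00657). RN7SL2 had 1138, 2487 and 1133 FPKM in the pools, against 343 and 455 FPKM in the clones, and did not pass (adjusted p = 0.0849). These genes are near copies and their reads could be split.

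Medians were also taken by chromosome. Over 215 genes of chromosome 13 the median log2 fold change was -0.44, and WT clone 1 was above WT clone 2 by a median of 0.25. Over 179 genes of chromosome 18 the median was 0.07, and WT clone 1 was below WT clone 2 by 0.21. On chromosomes 16, 19 and 22 the medians were -0.04, 0.02 and 0.02, and the deviation of bulk control 3 from the 5-library mean was 0.24, 0.25 and 0.25 above its own median over all genes. For bulk control 3 this deviation also exceeded 0.1 in size on chromosomes 17 (0.16), 2 (-0.11), 4 (-0.12), 6 (-0.104), 13 (-0.23) and X (-0.11). On chromosome 4 the median was -0.31. Copy number was not measured, and its part in these values was not tested.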
